A study of Homo sapiens with 38 samples.

Results

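The 9 genes described here, measured in human neuroblastoma cell lines, were chosen by name as the enzymes that build the ganglioside GD2 and as proteins of the cell surface against which antibodies or engineered T cells are directed. They were B4GALNT1, ST8SIA1 and ST3GAL5 for GD2 synthesis, and CD276, GPC2, L1CAM, NCAM1, DLK1 and DLL3 for the surface. All 9 were found by symbol among the 50652 genes listed for the BE2C samples and among the 50778 listed for the other lines. Sequencing reads of total RNA had been counted per gene, so every value below is a level of RNA and none measures the ganglioside or a protein on the cell surface.

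The 27 libraries came from 5 cell lines and fell into 3 experiments. BE2C, a MYCN-amplified line grown in RPMI, was transfected for 72 h with a non-targeting siRNA (siCtrl, 2 libraries) or with the siRNAs N1, N2 and N33 against KDM6B, a demethylase of histone H3 lysine 27 (siKDM6B, 1 library each). BE2C was also given 2.5 µM GSK-J4, an inhibitor of KDM6 demethylases, for 0 h, 24 h or 48 h (2 libraries each). CHLA15, CHLA20, NB1643 and NB1691, grown in DMEM by the labels (the study's methods name RPMI for CHLA15, CHLA20 and NB1691), received no drug or palbociclib, an inhibitor of the kinases CDK4 and CDK6, for 72 h (2 libraries each). The palbociclib dose was 300 nM in CHLA15 and CHLA20 and 3 µM in NB1643 and NB1691, so dose and line cannot be told apart between these pairs. Each line is 1 established line, the GSK-J4 series has no untreated arm at 24 h or 48 h, and nothing in the labels says that replicates were separate cultures, so p-values measure only the spread between these libraries. The extraction note of the labels speaks of xenograft tissue, whereas every sample is labelled as a cell line.

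Gangliosides are sialic acid-bearing glycolipids of the outer leaf of the plasma membrane. GM3 synthase (ST3GAL5) adds a sialic acid to lactosylceramide, GD3 synthase (ST8SIA1) adds a further one, and the N-acetylgalactosaminyltransferase B4GALNT1 turns GD3 into GD2, which neuroblastoma cells carry abundantly and which is the target of antibodies used in the clinic. The surface proteins are CD276 (also named B7-H3), an immune checkpoint ligand; glypican-2 (GPC2), a heparan sulfate proteoglycan of the developing nervous system; L1CAM and NCAM1, adhesion molecules of the immunoglobulin family; DLK1, a paternally expressed transmembrane protein; and DLL3, an inhibitory Notch ligand.

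Depth ran from 41227956 to 50776662 counts per library in the siRNA experiment, from 36186567 to 63433818 with GSK-J4 and from 45457371 to 93011010 with palbociclib, and 3 counts came to at most 0.0844 CPM (counts scaled to a common library total), far under the lowest member. CPM were scaled within each experiment by edgeR's trimmed mean of M-values. KDM6B itself overlapped between the libraries labelled siKDM6B and siCtrl, with 6.47 and 8.76 CPM in siCtrl and 8.99, 7.11 and 8.26 CPM with N1, N2 and N33. Markers of the sympathetic neuroblast (9 genes such as HAND2 and CHGA) were present in every library. Their summed level was 4320 to 5770 CPM in the controls of CHLA15, CHLA20 and NB1643 and 680 to 763 CPM in those of NB1691, where 6 fibroblast markers summed to 16300 to 16600 CPM, against 131 to 580 CPM in the controls of the other 3 lines. COL1A1 made up most of that sum at 14700 CPM, while COL1A2, its partner chain, stood at 1.69 CPM. Leukocyte markers summed to less than 1 CPM in every library. The normalization factors of the 4 NB1691 libraries were 0.772 to 0.824, and scaling by library totals would move the median over all genes of the untreated contrasts with NB1691 by 0.399 to 0.408 on the log2 scale. By that scaling 57.6 to 59.4% of the calls against NB1691 were higher, in place of 44.7 to 45.8%, and 35.9% of the palbociclib calls in NB1691 were higher, in place of 52.9%.

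The untreated lines differed most in the last enzyme of GD2 synthesis. B4GALNT1 (chromosome 12, 58017192 to 58027022 on GRCh37, minus strand) was counted at 1223 and 1256 CPM in NB1691, 112 and 120.3 CPM in CHLA15, 102.1 and 103 CPM in CHLA20, and 90.35 and 81.2 CPM in NB1643. NB1691 was thus 10.7-fold above CHLA15, 12.1-fold above CHLA20 and 14.4-fold above NB1643 (log2 fold change of CHLA15 against NB1691 -3.42 ± 0.06 SE, edgeR adjusted p = 1.07e-19). ST8SIA1 (chromosome 12, 22216707 to 22589975, minus strand), the GD3 synthase that supplies its substrate, was instead lowest in NB1691. It held 4.43 and 4.63 CPM there, against 17.8 to 21.4 CPM over the 6 other control libraries. That was 4.2- to 4.64-fold less than in the other lines, among which no pair passed the test (edgeR adjusted p = 0.0666, 0.196 and 0.765), although CHLA15 and CHLA20 passed against NB1643 without NB1643 control replicate 1 (0.0109 and 0.0309). In ST3GAL5 (chromosome 2, 86064243 to 86132322, minus strand), the GM3 synthase at the head of the route, NB1643 was highest with 50.5 and 50.8 CPM. CHLA20 had 28.6 and 31.1 CPM, CHLA15 25.8 and 26.8 CPM and NB1691 25.5 and 24.6 CPM, and of these neighbours neither CHLA20 and CHLA15 (edgeR adjusted p = 0.0859, or 0.0339 without CHLA20 control replicate 1) nor CHLA15 and NB1691 (0.332) passed the test. The last pair did pass by library totals (log2 fold change 0.48, adjusted p = 3.28e-06), by upper quartiles (0.19, 0.0147) and with the compared groups alone (0.12, 0.0273).

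L1CAM (chromosome X, 153126969 to 153151627, minus strand) was the surface gene with the widest excess in NB1691. Its levels were 1625 and 1642 CPM there, 232 and 233 CPM in CHLA15, 181.7 and 180.4 CPM in CHLA20 and 162 and 146 CPM in NB1643, so that NB1691 was 7.02- to 10.6-fold above the others (edgeR adjusted p for CHLA15 against NB1691 2.6e-19). GPC2 (chromosome 7, 99767229 to 99775004, minus strand) ran the other way, with 15.7 and 16 CPM in NB1691 and 118.5 to 155.5 CPM in the 6 other control libraries, a difference of 7.87- to 9.68-fold (edgeR adjusted p for CHLA15 against NB1691 4.38e-18). Between CHLA15 and CHLA20 GPC2 did not pass the test (adjusted p = 0.212), and its step from CHLA20 to NB1643 (adjusted p = 0.0353) was lost without NB1643 control replicate 2 (log2 fold change 0.06, adjusted p = 0.477) and without either CHLA20 control.

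DLK1 (chromosome 14, 101192042 to 101204561, plus strand) fell in steps from NB1643 (79.2 and 75.8 CPM) to CHLA15 (57.8 and 49 CPM), CHLA20 (37.1 and 31.4 CPM) and NB1691 (15.1 and 17.1 CPM), and each neighbouring pair in this order differed with an edgeR adjusted p of at most 0.00134. CD276 (chromosome 15, 73976307 to 74006855, plus strand) kept within a range of 1.81-fold, highest in NB1691 (119 and 125 CPM) and lowest in NB1643 (69.75 and 64.7 CPM), with CHLA15 and CHLA20 not told apart (edgeR adjusted p = 0.265). NCAM1 (chromosome 11, 112831997 to 113149158, plus strand) also varied little, at 348 and 317 CPM in NB1643, 271 and 277 CPM in CHLA15, 254 and 220.4 CPM in CHLA20 and 216 and 224 CPM in NB1691, where the last pair did not pass the test (adjusted p = 0.119, but 8.48e-04 without CHLA20 control replicate 2, 2.22e-06 by library totals and 0.00418 by upper quartiles). DLL3 (chromosome 19, 39989535 to 39999121, plus strand) varied least: its 8 control libraries lay between 21.75 and 29.5 CPM. It passed the joint test over the lines narrowly (edgeR adjusted p = 0.0468), no neighbouring pair in its order differed, and the joint call was lost without CHLA20 control replicate 2 (0.214) or NB1643 control replicate 2 (0.439) among others.

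All 9 members passed the joint test over the 4 untreated lines, as did 91.2% of all genes tested. By pair, 4 members differed between CHLA15 and CHLA20, 7 between CHLA15 and NB1643, 8 between CHLA20 and NB1643, 7 and 7 between NB1691 and the CHLA lines, and 9 between NB1643 and NB1691. Of the 4 between CHLA15 and CHLA20, B4GALNT1 lost its call without any 1 of the 4 control libraries (edgeR adjusted p from 0.08 to 0.372) and NCAM1 without 3 of them (0.157 to 0.45). The corresponding shares of all genes were 12.4% for CHLA15 against CHLA20, 64.6% for CHLA15 against NB1643, 64.5% for CHLA20 against NB1643, 78.0% for CHLA15 against NB1691, 77.5% for CHLA20 against NB1691 and 80.7% for NB1643 against NB1691. Scaling by library totals turned the direction of DLL3 against NB1691, from a log2 fold change of -0.28 to 0.14 for NB1643. It also ended the CD276 call for CHLA15 against NB1691 (log2 fold change -0.076, edgeR adjusted p = 0.198) and added the ST3GAL5 and NCAM1 calls given above. It left NB1691 highest for B4GALNT1 and L1CAM and lowest for GPC2 and ST8SIA1.

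**Figure D1:**
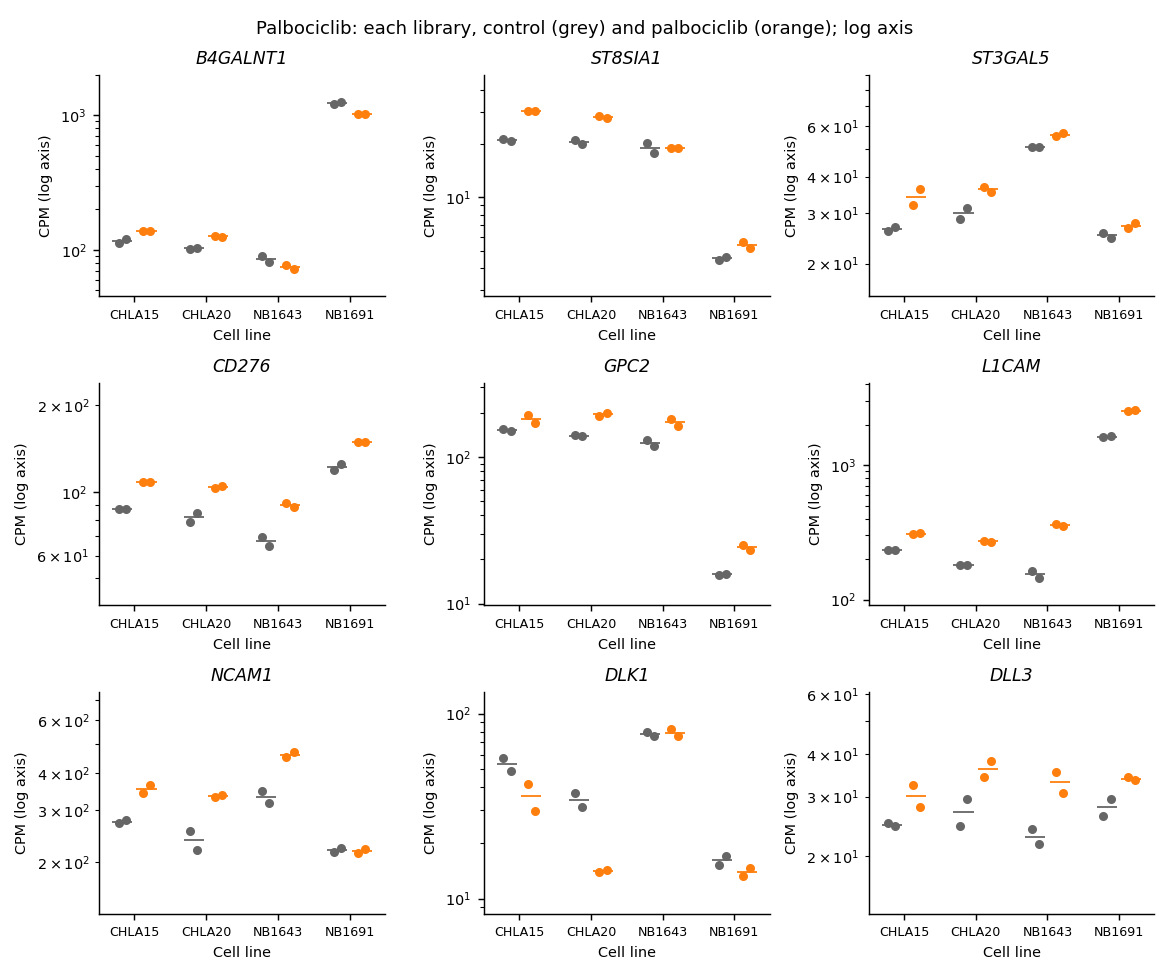
Level of each gene (CPM, logarithmic vertical axis) in the 4 lines of the palbociclib experiment, with grey points for the 2 control libraries, orange points for the 2 treated ones and short bars for the mean. Control B4GALNT1 lay at 1223 and 1256 CPM in NB1691 and between 81.2 and 120.3 CPM elsewhere; L1CAM rose in every line, and DLK1 fell in CHLA15 and CHLA20.

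Per kilobase of the canonical transcript, which allows genes to be set against each other, the order of the members differed between lines. GPC2 led in CHLA15 (60.3 ± 1.12 CPM per kb, SD, n = 2) and CHLA20 (55 ± 0.226), NCAM1 in NB1643 (57.1 ± 3.75) and L1CAM in NB1691 (318 ± 2.26), where B4GALNT1 came next with 230.9 ± 4.24 CPM per kb. In BE2C before GSK-J4, DLK1 led with 119.1 ± 2.97 CPM per kb, ahead of NCAM1 (49.5 ± 0.403), L1CAM (41.7 ± 0.523), CD276 (23.15 ± 0.891) and DLL3 (17.6 ± 0.608). The GD2 enzymes and GPC2 closed this order at 0 h. GPC2 stood at 3.31 ± 0.178, ST8SIA1 at 3.19 ± 0.0283, B4GALNT1 at 2.82 ± 0.0686 and ST3GAL5 at 1.71 ± 0.0509 CPM per kb. In siCtrl, DLK1 (55.35 ± 6.095) and NCAM1 (54.06 ± 5.409) lay close together. B4GALNT1 (4.643 ± 0.2977) stood above ST8SIA1 (3.369 ± 0.1075) there. With the length of all annotated exons in place of the canonical transcript, NCAM1 dropped below L1CAM in BE2C, CHLA15 and CHLA20 and below GPC2 in NB1643. BE2C was counted and scaled apart from the other lines, and its levels are therefore set beside theirs with no test. On that footing BE2C had 545 and 565 CPM of DLK1 at 0 h (238 and 278 CPM in siCtrl), above every library of the other lines, and 8.105 to 15.2 CPM of GPC2 over its 4 untreated or siCtrl libraries.

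Many genes around B4GALNT1 on chromosome 12 were likewise higher in NB1691. In the annotation, 55 genes with a mean of at least 1 CPM in the control libraries began within 1500 kb of it, counted from lower coordinate to lower coordinate. In 37 of them (67.3%) both NB1691 controls lay above all 6 other control libraries, against 37.4% of all 15041 genes at that level. Within 250 kb it was 20 of 20 genes, with a median log2 ratio of NB1691 to the other lines of 4.32, against -0.01 over all genes. OS9, whose product acts in the quality control of the endoplasmic reticulum, had a log2 ratio of 6.73 at 70 kb from B4GALNT1. LRP1, an endocytic receptor, had 6.52, and CDK4, the kinase that palbociclib inhibits, had 4.52 at 124 kb; B4GALNT1 itself had 3.61. These neighbours were looked up after the level of B4GALNT1 had been seen. The part of this shared difference in the level of B4GALNT1 was not tested.

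**Figure D2:**
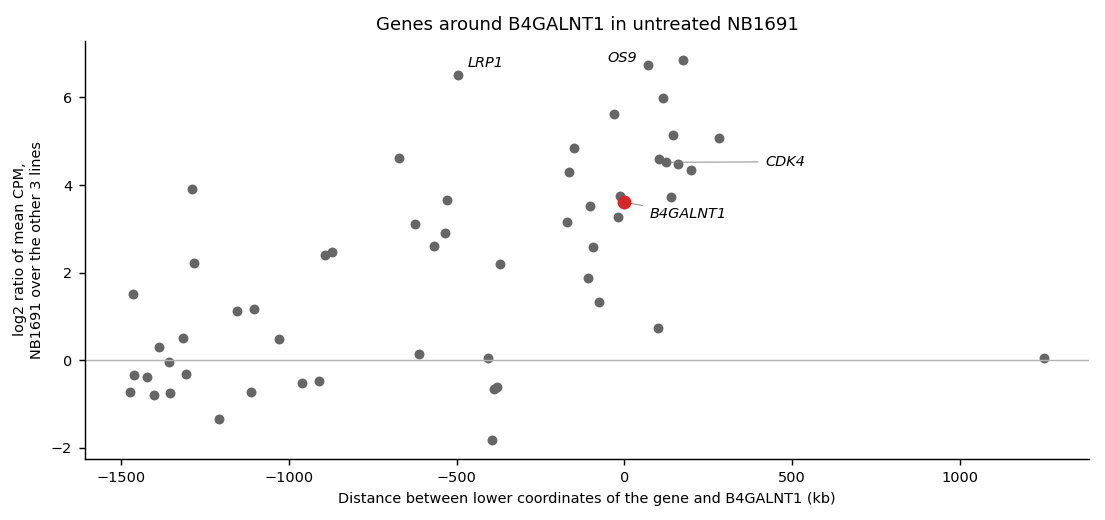
Each point is 1 gene within 1500 kb of B4GALNT1; the horizontal axis gives the distance between the lower coordinates of the genes (kb) and the vertical axis the log2 ratio of mean control CPM in NB1691 to that in CHLA15, CHLA20 and NB1643. B4GALNT1 (red) stands at 3.61 among 20 genes within 250 kb that all lie above 0, and both NB1691 controls exceed all other controls in 37 of the 55 neighbours.

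The annotation also sets a limit on B4GALNT1, since 27.1% of its exon length is shared with a pseudogene on the opposite strand, SLC26A10P, listed in the files as SLC26A10, and whether counting used the strand is not given in the sources used here. SLC26A10 received 3.94 to 13.2% as many counts as B4GALNT1 over the palbociclib libraries. NCAM1-AS1, antisense to NCAM1, received at most 0.185% as many as NCAM1.

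Palbociclib was followed by higher levels of most of these genes in all 4 lines. In CHLA15 and CHLA20, 8 of the 9 members rose and DLK1 fell, where 14.2% and 13.7% of all genes were called higher and 15.6% and 15.9% lower. In NB1643 and NB1691, 5 members rose and B4GALNT1 fell, against 20.3% and 17.4% of all genes higher and 19.7% and 15.5% lower. The median log2 fold change of the members was 0.31 in CHLA15, 0.43 in CHLA20, 0.42 in NB1643 and 0.25 in NB1691, and that of all genes lay between -0.0021 and 0.02. CD276, GPC2, L1CAM and DLL3 rose in each of the 4 lines.

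L1CAM, which promotes neurite growth and migration, had the largest rise. Its 2 control and 2 treated libraries held 162 and 146 against 364.5 and 352 CPM in NB1643, a log2 fold change of 1.22 ± 0.05 (SE, 2.32-fold, edgeR adjusted p = 6.17e-13). In NB1691 the step was from 1625 and 1642 to 2550.0 and 2551 CPM (0.64 ± 0.05, adjusted p = 8.9e-09), in CHLA20 from 181.7 and 180.4 to 272 and 269 CPM (0.58 ± 0.05) and in CHLA15 from 232 and 233 to 305.5 and 312 CPM (0.41 ± 0.05). The treated and control libraries did not overlap in any line. The size of the change differed between the lines (edgeR interaction test, adjusted p = 2.71e-07, where 38.0% of all genes passed).

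GPC2, the glypican, rose by a log2 fold change of 0.62 ± 0.08 in NB1691 (15.7 and 16 to 25.2 and 23.35 CPM), 0.48 ± 0.07 in CHLA20 (140.4 and 139.5 to 191.5 and 199.5 CPM), 0.47 ± 0.07 in NB1643 (131 and 118.5 to 183 and 163 CPM) and 0.24 ± 0.07 in CHLA15 (155.5 and 151.5 to 192 and 172 CPM). In NB1691 it stayed, after the rise, far below the untreated levels of CHLA15, CHLA20 and NB1643. The difference between lines passed the interaction test with an adjusted p of 0.0324, which 6 of the 16 libraries could each undo when left out (up to 0.121 without CHLA15 palbociclib replicate 2). In CHLA15 the rise itself lost its call without palbociclib replicate 1 (log2 fold change 0.17, edgeR adjusted p = 0.149) or control replicate 2 (0.22, 0.0784).

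CD276 rose by nearly the same step throughout, with log2 fold changes of 0.31, 0.35, 0.42 and 0.29 in CHLA15, CHLA20, NB1643 and NB1691 (SE 0.05 in each). Treated libraries held 107.8 and 107.9 CPM in CHLA15 against 87.35 and 87 CPM, and 91.2 and 88.8 CPM in NB1643 against 69.75 and 64.7 CPM. The interaction test did not separate the lines (edgeR adjusted p = 0.461). DLL3 went from 24 and 21.75 to 35.5 and 30.8 CPM in NB1643 (log2 fold change 0.53 ± 0.10, edgeR adjusted p = 2.16e-04) and by 0.28 ± 0.10, 0.43 ± 0.10 and 0.28 ± 0.10 in CHLA15, CHLA20 and NB1691, again without a difference between lines (adjusted p = 0.341). The DLL3 call rested on single libraries: it was lost in CHLA15 without palbociclib replicate 1 (0.17, adjusted p = 0.335) or either control, in NB1691 without control replicate 1 (0.20, 0.266) or either palbociclib library, and in CHLA20 without palbociclib replicate 2 (0.33, 0.0564) or control replicate 1 (0.28, 0.055).

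NCAM1 rose in 3 lines and not in NB1691. It went from 348 and 317 to 452.5 and 468.5 CPM in NB1643 (log2 fold change 0.47 ± 0.06), from 254 and 220.4 to 331 and 336 CPM in CHLA20 (0.49 ± 0.06) and from 271 and 277 to 343 and 365 CPM in CHLA15 (0.37 ± 0.06), with edgeR adjusted p of at most 1.66e-04. In NB1691 the controls held 216 and 224 CPM and the treated libraries 215 and 221.5 CPM (-0.01, 95% interval -0.14 to 0.12). The interaction test gave an adjusted p of 5.1e-04.

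DLK1, a regulator of differentiation in the adrenal lineage, was the surface gene that fell. In CHLA20 it dropped from 37.1 and 31.4 to 14 and 14.4 CPM (log2 fold change -1.28 ± 0.13, edgeR adjusted p = 3.54e-07), and in CHLA15 from 57.8 and 49 to 41.9 and 29.8 CPM (-0.58 ± 0.12, adjusted p = 9.45e-04). NB1643, with 79.2 and 75.8 CPM before and 82.1 and 75.7 CPM after, had an interval of -0.21 to 0.27, and NB1691, with 15.1 and 17.1 CPM before and 13.3 and 14.6 CPM after, one of -0.49 to 0.07. The effect differed between lines (edgeR interaction test, adjusted p = 4.81e-05). CHLA lines and NB lines also differed in dose.

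The GD2 enzymes split by line. B4GALNT1 rose in CHLA15 from 112 and 120.3 to 139 and 138 CPM (log2 fold change 0.25 ± 0.06, edgeR adjusted p = 0.00202) and in CHLA20 from 102.1 and 103 to 127 and 124 CPM (0.30 ± 0.06). It fell in NB1643 from 90.35 and 81.2 to 77.4 and 72.2 CPM (-0.20 ± 0.06, adjusted p = 0.00879) and in NB1691 from 1223 and 1256 to 1021 and 1027 CPM (-0.28 ± 0.05, adjusted p = 6.2e-04). The difference between lines passed the interaction test (adjusted p = 8.54e-06). The fall in NB1643 lost its call without palbociclib replicate 2 (-0.14, adjusted p = 0.135) or control replicate 1 (-0.11, 0.13), and the rise in CHLA15 without control replicate 1 (0.20, 0.0644). Of the 20 genes within 250 kb, palbociclib lowered 2 and raised 8 in NB1691, with a median log2 fold change of 0.15.

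ST8SIA1 rose in CHLA15 from 21.4 and 20.7 to 30.6 and 30.6 CPM (log2 fold change 0.54 ± 0.07, edgeR adjusted p = 4.92e-06) and in CHLA20 from 20.9 and 20 to 28.7 and 28.1 CPM (0.47 ± 0.07, adjusted p = 2.04e-05). In NB1643 it went from 20.2 and 17.8 to 19 and 19 CPM, with groups that overlapped (0.00, interval -0.15 to 0.14). NB1691 went from 4.43 and 4.63 to 5.57 and 5.2 CPM (0.25 ± 0.09, adjusted p = 0.0353), a call lost on leaving out any 1 of its 4 libraries (adjusted p from 0.0571 to 0.252). ST3GAL5 rose in CHLA15 (25.8 and 26.8 to 31.9 and 36.3 CPM, 0.37 ± 0.07) and CHLA20 (28.6 and 31.1 to 36.9 and 35.4 CPM, 0.28 ± 0.07, not called without palbociclib replicate 1 or control replicate 1, adjusted p = 0.0726 and 0.0687). Its log2 fold changes were 0.14 ± 0.06 in NB1643 and 0.11 ± 0.07 in NB1691, neither called. The interaction test passed for ST8SIA1 (adjusted p = 6.43e-04) and not for ST3GAL5 (0.0919, or 0.0336 without CHLA15 palbociclib replicate 1). All 3 enzymes of the route therefore rose in the CHLA lines, and in the NB lines the final enzyme fell.

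The summed level of the neuroblast markers was also higher with palbociclib, at 4990 to 5360 CPM in CHLA15, 5150 to 5230 CPM in CHLA20, 8440 to 8560 CPM in NB1643 and 1240 to 1260 CPM in NB1691, each above the controls of its line. The fibroblast sum was lower in the treated libraries of CHLA15, CHLA20 and NB1643 (424 to 441, 360 to 370 and 54.4 to 57.1 CPM) and higher in those of NB1691 (21200 to 22000 CPM). The part of these shifts in the members' changes was not tested.

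**Figure D3:**
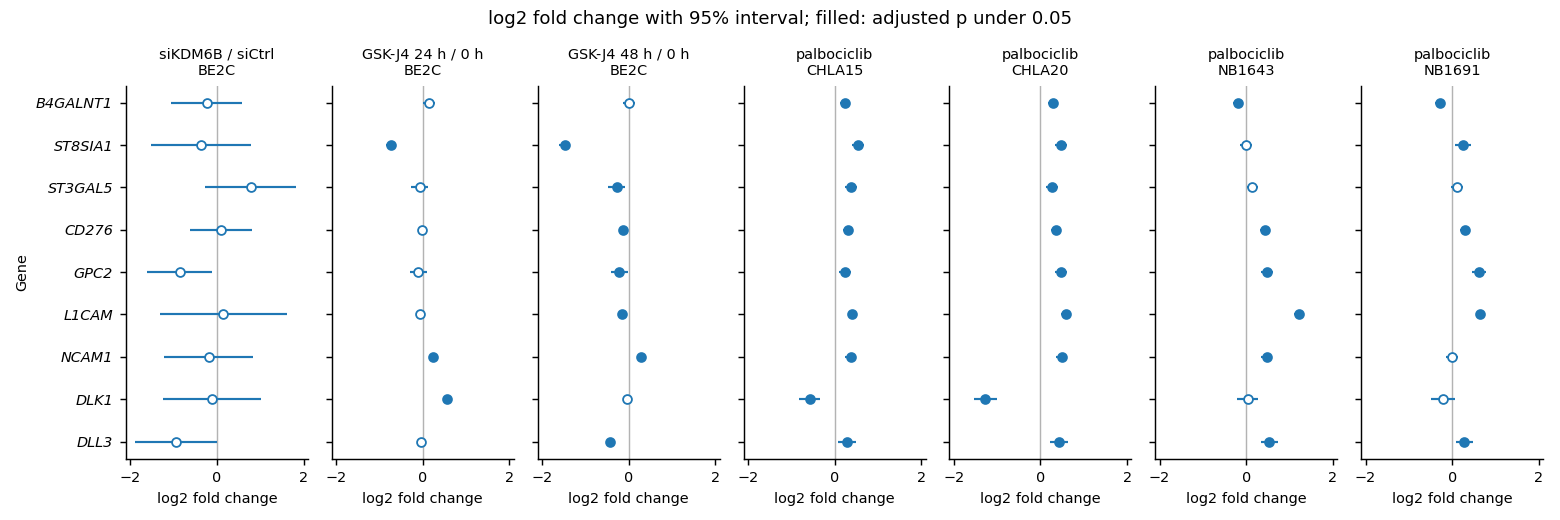
Log2 fold change (horizontal axis) of each gene in the comparison named above each panel, with its 95% interval; filled points passed an adjusted p of 0.05. ST8SIA1 moves left with GSK-J4 (-0.73 and -1.47) and right with palbociclib in CHLA15 and CHLA20 (0.54 and 0.47), and the intervals of the siRNA panel are the widest.

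ST8SIA1 fell more than any other member in BE2C over 48 h of GSK-J4, a series with no untreated arm at 24 h or 48 h. Its level was 30.75 and 31.1 CPM at 0 h, 18.4 and 19 CPM at 24 h and 11.6 and 10.6 CPM at 48 h. The fall amounted to a log2 fold change of -0.73 ± 0.06 at 24 h (edgeR adjusted p = 1.32e-14) and -1.47 ± 0.06 at 48 h (0.36 of the level at 0 h, adjusted p = 2.44e-25), and the second day added -0.75 ± 0.06 (adjusted p = 1e-13). No 2 time points overlapped. ST3GAL5 did not pass the test at 24 h and was lower at 48 h (7.31 and 7.63 to 6.36 and 5.95 CPM, -0.27 ± 0.10, adjusted p = 0.0122), a call lost without 0 h replicate 2 (-0.25, 0.0649) or 48 h replicate 2 (-0.24, 0.067). B4GALNT1 held 14.9 and 15.4 CPM at 0 h, 16.2 and 17.3 CPM at 24 h and 15.4 and 14.9 CPM at 48 h, and no comparison passed (48 h against 0 h: interval -0.14 to 0.14), although 24 h passed against 0 h without 24 h replicate 1 (0.19, adjusted p = 0.0482), as did 48 h against 24 h (-0.20, 0.031). The 24 h comparison also passed by library totals (adjusted p = 0.038), upper quartiles (0.0159), the filter at a mean of 1 CPM (0.0351) and with each file as a sample (0.0415), and 48 h against 24 h passed unfiltered (0.0447) and with the compared groups alone (0.0461). Of the 3 GD2 enzymes the middle one thus moved by far the most in these cells.

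DLK1 rose and returned. It stood at 545 and 565 CPM at 0 h, 802 and 826 CPM at 24 h and 529.7 and 552 CPM at 48 h, a log2 fold change of 0.55 ± 0.03 at 24 h (edgeR adjusted p = 9.24e-22), then -0.59 ± 0.03 from 24 h to 48 h (adjusted p = 9e-23), and -0.04 (interval -0.09 to 0.02) over the whole 48 h. NCAM1 went from 289 and 286 CPM to 338.5 and 342 CPM at 24 h (0.24 ± 0.03, adjusted p = 7.43e-10) and 358 and 345 CPM at 48 h (0.29 ± 0.03, adjusted p = 1.99e-12), and was the only member higher at 48 h than at 0 h. The Notch ligand DLL3 was level at 24 h (36.2 and 34.5 against 33.1 and 36.1 CPM) and lower at 48 h, with 27 and 25.6 CPM (-0.42 ± 0.05, adjusted p = 1.25e-09).

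**Figure D4:**
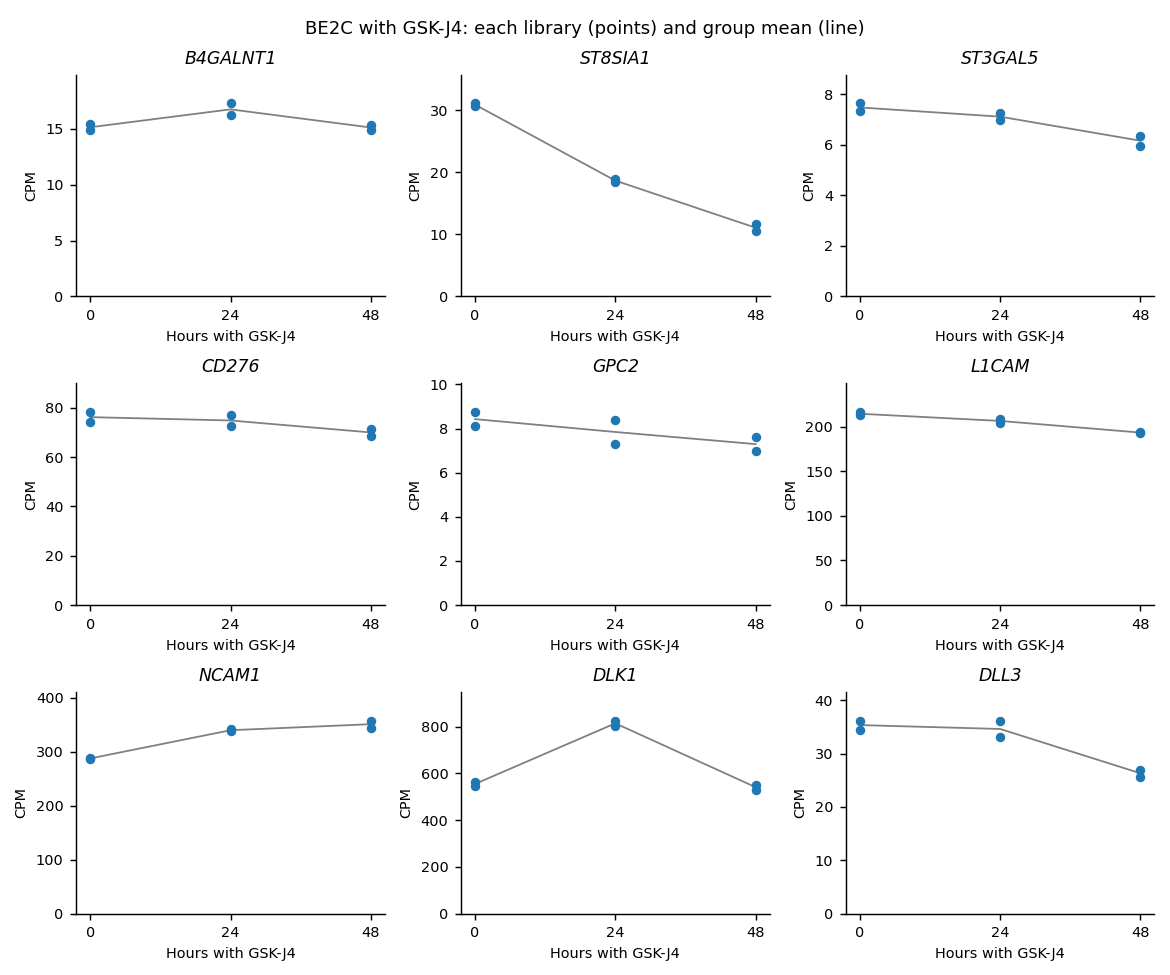
Level of each gene (CPM, axis from 0) in BE2C at 0, 24 and 48 h of GSK-J4; points are the 2 libraries of each time and the line joins their means. ST8SIA1 steps down from 30.75 and 31.1 to 11.6 and 10.6 CPM, DLK1 peaks at 802 and 826 CPM at 24 h, NCAM1 lies higher at 48 h (358 and 345 CPM) and DLL3 lower (27 and 25.6 CPM).

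The other 3 surface genes fell by small steps at 48 h. L1CAM went from 212.5 and 216 to 193 and 194 CPM (log2 fold change -0.15 ± 0.03, edgeR adjusted p = 1.7e-05), CD276 from 74.2 and 78.35 to 68.65 and 71.5 CPM (-0.12 ± 0.04, adjusted p = 0.00469) and GPC2 from 8.75 and 8.105 to 6.98 and 7.61 CPM (-0.21 ± 0.10, adjusted p = 0.0429). CD276 was not called without 0 h replicate 2 (-0.09, adjusted p = 0.0978) or 48 h replicate 1 (-0.10, 0.0953), nor GPC2 without 0 h replicate 1 (-0.16, 0.224) or 48 h replicate 1 (-0.15, 0.263). At 24 h, 2 members were higher and 1 lower, where 27.3% of all genes were called higher and 28.0% lower. By 48 h it was 1 higher and 6 lower, against 37.1% and 34.4% of all genes. From 24 h to 48 h no member was higher and 5 were lower, against 25.9% and 28.0% of all genes, by edgeR and likewise 0 higher by DESeq2, whereas NCAM1 was called higher by library totals (log2 fold change 0.067, adjusted p = 0.0419), upper quartiles (0.11, 9.04e-04), the filter at a mean of 1 CPM (0.084, 0.00787) and with each file as a sample (0.058, 0.00782), and 7 of the 9 had an unadjusted p under the threshold. CD276 was 1 of the 5, and lost that call without 24 h replicate 2 (adjusted p = 0.296) or 48 h replicate 1 (0.244). Both 24 h and 48 h were set against the same 0 h libraries. At 48 h against 0 h, library totals ended the calls of CD276 and GPC2 (edgeR adjusted p = 0.0665 and 0.111). The filter at a mean of 1 CPM did so too (0.0992 and 0.129). GPC2 was also not called by DESeq2 (adjusted p = 0.111) or with each file as a sample (edgeR adjusted p = 0.0607). Scaling by upper quartiles, which moved the median of all genes at 48 h by 0.11, left only ST8SIA1 and DLL3 called lower at 48 h, with B4GALNT1 not called and NCAM1 and DLK1 called higher. The summed neuroblast markers went from 5120 to 5210 CPM at 0 h to 3980 to 4010 CPM at 48 h, and their part was not tested.

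Between the libraries labelled siKDM6B and siCtrl no member passed the test. No gene at all was called (0.0% of 17472, smallest edgeR adjusted p = 0.279), 1615 genes had an unadjusted p under 0.05, and DESeq2 called 164. The 3 siRNAs differed from each other on most members, and N33 stood apart for ST8SIA1 (11.1 CPM against 27.5 and 37.4 with N1 and N2, and 33.4 and 32 in siCtrl), NCAM1 (142 against 273.5 and 413, and 292 and 337 in siCtrl), L1CAM (76.9 against 387 and 311, and 212 and 253 in siCtrl) and DLK1 (104.2 against 349 and 262, and 238 and 278 in siCtrl). ST3GAL5 was highest with N33 (15.5 CPM against 6.1 and 9.68, and 6.02 and 6.11 in siCtrl). The log2 fold changes of these 5 genes had 95% intervals at least 2 units wide, from -1.52 to 0.78 for ST8SIA1 and from -1.32 to 1.62 for L1CAM. The neuroblast marker sum was 2200 CPM with N33, 3550 with N2, 5170 with N1 and 4010 to 4060 in siCtrl. Without N33, the direction of NCAM1 (0.13) and DLK1 (0.25) turned, and without N1 that of L1CAM (-0.26) and CD276 (-0.18), none of them called.

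GPC2 and DLL3 were the members on which the 3 siRNAs went one way. GPC2 held 14.3 and 15.2 CPM in siCtrl and 9.51, 5.83 and 9.2 CPM with N1, N2 and N33 (log2 fold change -0.85 ± 0.31, adjusted p = 0.523 by edgeR's quasi-likelihood test). DLL3 held 17.2 and 18.4 CPM in siCtrl and 13.2, 5.48 and 9.01 CPM with siKDM6B (-0.95 ± 0.39, adjusted p = 0.538 by edgeR's quasi-likelihood test). That the 3 siKDM6B libraries lay below both siCtrl libraries was also true of 16.8% of all genes tested. B4GALNT1 (23.8 and 26.05 CPM in siCtrl, 20.15, 14 and 29.4 CPM with N1, N2 and N33) and CD276 (91.4 and 103.6, then 143, 86.8 and 84.8 CPM) scattered around the control level.

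**Figure D5:**
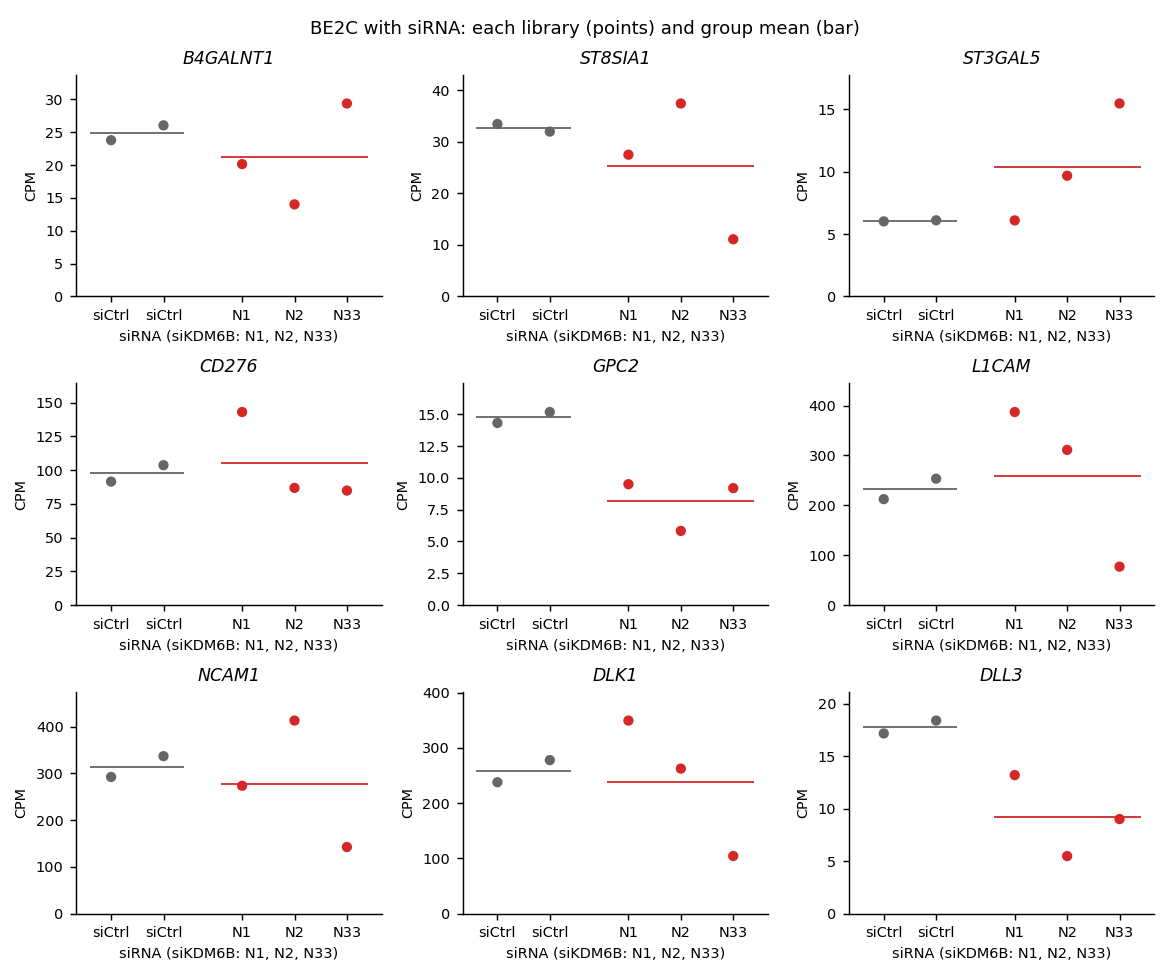
Level of each gene (CPM, axis from 0) in BE2C with siCtrl (grey, 2 libraries) or the siKDM6B siRNAs N1, N2 and N33 (red, 1 library each), with a bar at the mean of each group. N33 lies low for ST8SIA1 (11.1 CPM), L1CAM (76.9 CPM), NCAM1 (142 CPM) and DLK1 (104.2 CPM), while all 3 red points lie under the grey ones for GPC2 and DLL3.

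The other enzymes around GD2 were read from lists chosen by function. Over all genes, 27.3% were called higher and 28.0% lower at 24 h of GSK-J4, and 37.1% and 34.4% at 48 h. With palbociclib, 14.2%, 13.7%, 20.3% and 17.4% were called higher in CHLA15, CHLA20, NB1643 and NB1691. The shares called lower in these lines were 15.6%, 15.9%, 19.7% and 15.5%. The list counts below are to be read beside these shares. Upstream of ST3GAL5, the 3 enzymes that make glucosylceramide and lactosylceramide had 1 higher and 1 lower with palbociclib in CHLA20 and 1 higher and 2 lower in NB1643. In CHLA15, 2 rose, among them B4GALT5 from 129 to 183 CPM on average (log2 fold change 0.51), whereas in NB1691, 2 fell, led by the glucosylceramide synthase UGCG from 642 to 426 CPM (-0.59, edgeR adjusted p = 1.17e-07). At 48 h of GSK-J4, B4GALT5 (193 to 133 CPM, -0.53) and UGCG (77.7 to 67.5 CPM, -0.20) were lower, and 1 of the 3 was not called. Ganglioside-extending enzymes, 9 tested in BE2C, had 3 higher and 5 lower at 48 h of GSK-J4 with a median of -0.33 against 0.05 for all genes. ST6GALNAC3 (-0.61) and ST6GALNAC6 (-0.50), which add further sialic acids, fell the most, and ST8SIA3 (0.42) rose. With palbociclib 5 of 10 of these enzymes rose and none fell in CHLA15, 3 rose and 1 fell in CHLA20, 4 rose and 2 fell in NB1643 and 3 rose and 2 fell in NB1691, where ST8SIA3 led with 0.58 (15.7 to 23.5 CPM).

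Lists for supply and breakdown were counted in the same way. Of 5 genes for sialic acid supply, GNE, the first enzyme of that pathway, rose with GSK-J4 (35.15 to 53.5 CPM, 0.61) and 3 rose and 2 fell in all; palbociclib lowered 3 in NB1643, raised 1 in CHLA15 and called none in CHLA20 or NB1691. Of 10 ceramide synthesis genes 7 rose and 1 fell with GSK-J4 at 48 h (median 0.27 against 0.05), and of 12 tested in the palbociclib experiment 5, 3, 3 and 6 rose and 0, 0, 0 and 1 fell in CHLA15, CHLA20, NB1643 and NB1691. The lysosomal breakdown list of 13 genes split evenly with GSK-J4 at 48 h, 6 higher and 6 lower: GM2A, the activator for GM2 hydrolysis, rose from 11.8 to 24.1 CPM (1.03), and the sialidase NEU1 rose by 0.76 on the log2 scale. With palbociclib 9 of 13 breakdown genes rose and none fell in NB1691 (median 0.31), 8 rose and 1 fell in NB1643, 4 rose and 4 fell in CHLA15 and 2 rose and 2 fell in CHLA20. Of 6 genes of other sphingolipid branches, only 2 were tested in BE2C. Both were higher with GSK-J4 at 48 h, B3GNT5, of the lacto series, by 0.80 and SGMS1 by 0.16 (edgeR adjusted p = 0.0372). With palbociclib B3GNT5 fell in CHLA20, NB1643 and NB1691 (-0.39, -0.83 and -0.46).

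Relatives of the surface members were followed in the same way. The L1 and NCAM, glypican and B7 lists hold L1CAM, NCAM1, GPC2 and CD276 themselves, so these members enter the counts. Among L1 and NCAM family genes and their modifiers, palbociclib raised 10 of 11 in CHLA15 (median log2 fold change 0.50) and in CHLA20 (0.58), 7 in NB1643 (0.47) and 5 in NB1691 (0.26), with 1 lower there, ALCAM, from 804 to 670.5 CPM (-0.26). NCAM2 went from 12.2 to 23.6 CPM in CHLA15 (0.95), CHL1 from 16.9 to 29.2 CPM in CHLA20 (0.79) and NFASC from 73 to 144 CPM in NB1643 (0.98). At 48 h of GSK-J4, 5 of 10 were higher and 5 lower. ST8SIA4, a polysialyltransferase of NCAM1, fell from 13.9 to 5.62 CPM (-1.31) while ST8SIA2, the other one, rose from 25.05 to 31.1 CPM (0.32) and NCAM2 from 12.4 to 23.9 CPM (0.95).

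Glypicans and syndecans did not all follow GPC2 with palbociclib. Of 10 tested, 2 rose and 5 fell in CHLA15, 2 and 6 in CHLA20 and 2 and 4 in NB1643, the risers in these 3 lines being GPC2 and SDC3, and GPC3 went from 16.5 to 4.3 CPM in NB1643 (-1.94). In NB1691 5 rose and 3 fell. SDC4 fell from 5.51 to 1.36 CPM in CHLA20 (-2.01). With GSK-J4 at 48 h 5 of 9 rose and 3 fell, SDC1 the most (31 to 17.2 CPM, -0.84). Of 10 B7 family genes, 3 were tested with GSK-J4 and 7 with palbociclib: at 48 h of GSK-J4 2 of 3 rose and CD276 fell, and with palbociclib 3, 2, 2 and 4 of 7 rose in CHLA15, CHLA20, NB1643 and NB1691, while VSIR fell in CHLA20 (0.621 to 0.25 CPM).

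In the Notch list, which holds DLL3 and DLK1, 13 of 20 genes rose and 4 fell with GSK-J4 at 48 h (median 0.45 against 0.05 for all genes). DLL4, an activating ligand, went from 0.153 to 1.62 CPM (3.38) and DLK2 from 0.475 to 3.52 CPM (2.88), while LFNG fell (6.76 to 3.17 CPM, -1.09). Palbociclib gave 5 higher and 7 lower of 22 in CHLA15, 4 and 5 in CHLA20, 5 and 10 in NB1643 and 3 and 4 in NB1691, and the receptor NOTCH1 fell in CHLA15 (6.47 to 1.58 CPM, -2.03), CHLA20 (-2.11) and NB1643 (-1.42). Of 6 genes of the imprinted domain around DLK1, itself included, 3 were higher and 1 lower at 24 h of GSK-J4 (median 0.31), when DLK1 was higher, and 0 were higher and 3 and 2 lower with palbociclib in CHLA15 and CHLA20, where DLK1 fell. At 48 h of GSK-J4, when DLK1 did not differ from 0 h by the test, MEG3, the maternally expressed RNA of the domain, was higher (196 to 299 CPM, 0.61), DIO3 was higher (0.25 to 2.13 CPM, 3.08) and RTL1 lower (2.8 to 0.345 CPM, -2.99). With palbociclib, MEG9 (-0.80) fell beside DLK1 in CHLA15 and RTL1 (-1.01) in CHLA20, RTL1 rose in NB1643 (1.16) and MEG3 rose in NB1691 (46.1 to 91.4 CPM, 0.99).

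Among 12 other surface targets, 6 rose and 1 fell with palbociclib in CHLA15, 5 and 3 in CHLA20, 3 and 4 in NB1643 and 5 and 4 in NB1691. SLC6A2, the noradrenaline transporter through which MIBG enters, rose from 51.6 to 190 CPM in NB1643 (1.88, edgeR adjusted p = 2.17e-13) and from 19.6 to 41.2 CPM in CHLA20 (1.07), SSTR2, the somatostatin receptor, from 23.9 to 60.2 CPM in CHLA20 (1.33), and SEZ6 fell in all 4 lines (-0.59, -0.39, -1.31 and -0.57). With GSK-J4 at 48 h 5 rose and 6 fell, with SSTR2 (23.2 to 52.9 CPM, 1.19) and ERBB2 (2.87 to 7.94 CPM, 1.47) at the top. In the siRNA comparison no gene of any of these lists was called.

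Across the 27 libraries, the genes whose log2 CPM ran most like each member were, among 14728 genes, IGFBP6 and F2RL1 for B4GALNT1 (Pearson r = 0.988 for both), PRRT4 and STOX2 for ST8SIA1 (0.947 and 0.939), GPRASP1 and CAMK2G for ST3GAL5 (0.984 and 0.983), FAM214B and ITM2B for CD276 (0.895 and 0.869), SAMD14 and CELF5 for GPC2 (0.994 and 0.99), B3GNT9 and C10orf10 for L1CAM (0.974 and 0.956), HTR1E and ERICH1 for NCAM1 (0.883 and 0.854), CDON and SRBD1 for DLK1 (0.969 and 0.964) and RP3-417G15.1 and SEPHS2 for DLL3 (0.822 and 0.749). For these values alone, all 27 libraries were scaled together over the 49070 genes listed for BE2C and for the other lines. BE2C had been counted apart, and its difference from the other lines enters the values. The 27 libraries share 5 lines and their replicates, so the values carry no test. The members themselves ranged over 1.33 log2 units for CD276 up to 6.35 for B4GALNT1.

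Promoter sequence is shown for 4 of the 5 members that RefSeq's promoter table (GRCh38.p14) covers, at their first listed start, so that the 2 of these 5 with the largest called treatment changes (ST8SIA1, L1CAM) can be read beside 2 that rose in every palbociclib line (CD276, GPC2). B4GALNT1, NCAM1, DLK1 and DLL3 were not among its entries. Each run is the 250 bases before the start, read 5′ to 3′ on the gene's strand, and capitals mark CAGCTG. ST8SIA1 is chr12:22334708-22334957 on the minus strand, CD276 chr15:73684133-73684382 on the plus strand, GPC2 chr7:100177382-100177631 and L1CAM chrX:153875945-153876194, both on the minus strand.
ST8SIA1: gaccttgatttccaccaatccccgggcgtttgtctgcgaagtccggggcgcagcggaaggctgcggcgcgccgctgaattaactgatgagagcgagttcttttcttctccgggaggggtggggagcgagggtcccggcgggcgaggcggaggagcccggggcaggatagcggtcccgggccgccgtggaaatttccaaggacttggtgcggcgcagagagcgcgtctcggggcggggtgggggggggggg
CD276: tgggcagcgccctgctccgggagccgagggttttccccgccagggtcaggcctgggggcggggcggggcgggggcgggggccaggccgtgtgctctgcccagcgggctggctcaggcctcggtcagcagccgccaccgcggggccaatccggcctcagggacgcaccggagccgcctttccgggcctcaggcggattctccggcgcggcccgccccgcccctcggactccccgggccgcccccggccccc
GPC2: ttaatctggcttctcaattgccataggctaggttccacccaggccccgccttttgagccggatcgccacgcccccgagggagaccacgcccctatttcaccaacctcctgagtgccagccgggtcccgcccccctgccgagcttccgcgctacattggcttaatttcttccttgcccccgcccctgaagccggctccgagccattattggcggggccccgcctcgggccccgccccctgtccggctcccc
L1CAM: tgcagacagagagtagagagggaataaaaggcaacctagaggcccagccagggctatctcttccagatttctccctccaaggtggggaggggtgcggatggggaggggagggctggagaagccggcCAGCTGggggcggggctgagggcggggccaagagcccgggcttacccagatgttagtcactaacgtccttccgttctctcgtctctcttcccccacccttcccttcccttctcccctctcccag
Over the whole 300-base entries, which run 50 bases past the start, CACGTG (the E-box that MYC proteins prefer, 7.26% of all 35116 promoters) and the E2F letters TTTCCCGC, TTTCGCGC, TTTGCCGC or TTTGGCGC (3.31%) were found on neither strand in any of the 11 entries of the 5 members. CAGCTG (17.9% of all promoters) was found in 5 of them, 3 of ST3GAL5 and 2 of L1CAM. The entries that hold it overlap within each gene, so the same site was counted repeatedly. The 5 entries are therefore not separate sites and cannot be set against the share of all promoters. The windows of these genes were rich in G and C, 70.3% in ST8SIA1, 80.3% in CD276, 66% in GPC2 and 64.7% in L1CAM, against a median of 58.7%.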

How the data were processed

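The authors aligned reads of total RNA to GRCh37 with an in-house pipeline and counted them per gene with HTSeq; the submitters' processing notes also name CASAVA and STAR 2.5.3a. Whole-number counts were deposited by the authors in 38 files; whether strand was used is not given in the sources used here, and the annotation release named carries a mouse code while the gene symbols are human. The 5 summary lines of each file were left out. BE2C files come as 2 per name stem; files of a stem differed less than replicates did, and they were summed as 1 library, giving 27 libraries. The members, pathway lists and tests were chosen with earlier results of these data known. Named genes were the members, KDM6B, at most the 2 highest and 2 lowest called genes of a list for GSK-J4 at 48 h and for palbociclib in each line, and the 2 genes most correlated with each member; a gene that this rule would name is not reported here. Named outside this rule, after their values were seen, were neighbours and overlapping genes of members and examples of the cell type markers.

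Each experiment was fitted on its own in edgeR 4.0.16 (R 4.3.3): filterByExpr, trimmed mean of M-values (TMM), the quasi-likelihood test with 1 coefficient per group (siKDM6B as 1 arm of 3 siRNAs) and Benjamini-Hochberg adjustment over all genes tested, called at an adjusted p under 0.05. Intervals cover 95% and come from the fitted spread between libraries. Genes around B4GALNT1 were looked up after its level in NB1691 was seen, and 0.1 CPM was added to both sides of their log2 ratios. Steps were tested on simulated data. Alternatives were library totals, upper quartiles, DESeq2 1.42.0, limma-voom (limma 3.58.1), other filters, a fold limit, files as samples, a replicate block, the compared groups alone and each library left out; exon-union lengths were added after seeing the data. Coordinates are those of GENCODE's annotation lifted to GRCh37. Total counts per library bound the counting error, and 3 counts served as the floor.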

Additional observations from a re-analysis of the deposited data

Results flagged for a closer look

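The effect of palbociclib differed between the 4 lines for 6 of the 9 genes by the interaction term of the edgeR model, which 38.0% of all genes passed. The adjusted p was 2.71e-07 for L1CAM, which rose in every line and by the most in NB1643 (log2 fold change 1.22), and 8.54e-06 for B4GALNT1, which rose in CHLA15 and CHLA20 and fell in NB1643 and NB1691. It was 4.81e-05 for DLK1, lower in CHLA20 (-1.28) and CHLA15 (-0.58) and not called in the NB lines, 5.1e-04 for NCAM1, not called in NB1691 alone, and 6.43e-04 for ST8SIA1, not called in NB1643 alone. GPC2 passed with 0.0324, a call lost under several settings. The rise of ST8SIA1 in NB1691 was likewise not called by library totals (edgeR adjusted p = 0.183) or unfiltered (0.105). Nor was it called by DESeq2 (adjusted p = 0.0522) or limma-voom (adjusted p = 0.0787). The CHLA lines received 300 nM and the NB lines 3 µM, so line and dose cannot be told apart between the CHLA and NB lines. Within each of these pairs the dose was the same. That holds for DLK1 in CHLA20 (-1.28) and CHLA15 (-0.58), and for NCAM1, called in NB1643 and not in NB1691.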

How the results depend on the processing

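Log2 fold changes of members were recomputed under other settings, the fold limit apart. Of 1485 such values, 1333 kept direction and side of the threshold. With the sign kept, 83 lost their call and 27 gained one. Another 42 changed sign, 1 of the 42 from a called value. Some of the 42 also gained a call, such as DLK1 at 48 h of GSK-J4 by upper quartiles. Of 45 called treatment changes, 31 kept their call under all of these settings, again apart from the fold limit. The cause of the changes below was not tested, except where fewer samples or a fold limit sets them. Most groups had 2 libraries, which limits the precision of every value. Values of single genes here are log2 fold changes. No fit with a replicate block was possible for the siRNAs, whose libraries share fewer than 2 replicate numbers with siCtrl.

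An absolute log2 fold change above 0.5 left 3855, 7487 and 3111 genes for GSK-J4 at 24 h, at 48 h and for 48 h against 24 h (1 member higher at 24 h, 0 higher and 1 lower at 48 h, 2 lower for the last). Palbociclib then kept 2600, 2659, 4292 and 3033 genes in CHLA15, CHLA20, NB1643 and NB1691, with 1, 1, 2 and 2 members higher and 0 lower in the NB lines. For untreated CHLA15 against CHLA20 it was 916 genes and 1 member higher, 1 higher against NB1643, and 0 for CHLA20 against NB1643.

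For siKDM6B, DESeq2 called 164 genes, no filter 84, and each file as a sample 2354 with 2 members lower (GPC2 and DLL3); limma-voom turned L1CAM to -0.15. B4GALNT1 at 48 h of GSK-J4, close to 0, came to 0.044 by library totals, 0.11 by upper quartiles, 0.055 with a mean of at least 1 CPM, 0.028 with each file as a sample and 1.8e-04 by limma-voom. DLK1 at 48 h came to 0.0064, 0.073 and 0.018 by library totals, upper quartiles and the 1 CPM filter. Upper quartiles gave 0.022 for CD276 and 0.017 for DLL3 at 24 h, and 2 members higher and 2 lower at 48 h. From 24 h to 48 h, 1 member was higher by library totals, upper quartiles, the 1 CPM filter or each file as a sample, and 3 were lower by upper quartiles or the 1 CPM filter. Upper quartiles raised the share of higher calls there from 48.1 to 58.1%.

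With palbociclib, ST8SIA1 in NB1643 was 0.054 by upper quartiles, 0.021 by DESeq2 and 0.0019 unfiltered; NCAM1 in NB1691 was 0.034 by upper quartiles and 5.2e-04 with the 1 CPM filter. Members lower in NB1643 were 0 by upper quartiles or the compared groups alone, members lower in NB1691 were 2 (DLK1 added) unfiltered or with those groups alone, and members higher in NB1691 were 3 by library totals. Untreated, library totals gave 0.24, 0.35 and 0.14 for DLL3 in CHLA15, CHLA20 and NB1643 against NB1691, where upper quartiles gave 0.064 and the compared groups alone 0.013 for CHLA20. CHLA15 against CHLA20 had 2 members higher by library totals or the groups alone, the latter with 1285 genes; CHLA20 against NB1643 had 3 by library totals, upper quartiles or the 1 CPM filter and 0 with the groups alone.

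Leaving out 1 library gave these ranges. For siKDM6B, CD276 ran from -0.18 to 0.24, DLK1 from -0.49 to 0.25, L1CAM from -0.26 to 0.59 and NCAM1 from -0.59 to 0.13. For GSK-J4, CD276 ran from -0.067 to 0.019 and DLL3 from -0.089 to 0.031 at 24 h, and B4GALNT1 from -0.031 to 0.018 at 48 h. For palbociclib, NB1643 gave DLK1 -0.031 to 0.089, ST8SIA1 -0.11 to 0.10 and 0 to 1 members lower, and NB1691 gave NCAM1 -0.037 to 0.02004 and 3 to 4 members higher. Untreated CHLA15 against CHLA20 gave DLL3 -0.26 to 0.015, 1130 to 4012 genes called, 2 to 3 members higher and 0 to 1 lower. CHLA20 against NB1643 gave ST8SIA1 -0.017 to 0.19 and 3 to 6 members higher, and CHLA20 against NB1691 gave DLL3 -0.13 to 0.15.

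Deviations of libraries with the same replicate number correlated between -0.0628 and 0.0483 with 2 pairs a comparison. So few pairs cannot show whether samples of the same number were handled together. A fit with the replicate block changed no call among 63 member changes and put B4GALNT1 at 48 h at 8.9e-04. By library totals 67 of 108 group levels moved by over 1 SD, and 105 of 108 levels per kilobase did so with exon-union lengths.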
